A study of Mus musculus with 18 samples.

Results

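Myelin and mature oligodendrocyte genes were followed as 9 named members, Mbp, Mobp, Mog, Mag, Cldn11, Cnp, Ugt8a, Ermn and Myrf, of 48795 genes in the table. The members were taken by name, and all 9 were found. RNA was sequenced from GL261, a mouse glioma line carrying green fluorescent protein (GFP), and from the brain tumours it formed. There were 18 libraries in 6 groups of 3: cultured GFP+ cells as used for injection, GFP+ tumour cells from C57BL/6 wild-type (WT) mice, GFP+ tumour cells from Pfp/Rag2-/- mice, unsorted cells of WT tumours, unsorted cells of Pfp/Rag2-/- tumours, and GFP- cells of WT tumours. Tumours came from symptomatic mice, 6 of each host, and were digested with collagenase before sorting. Pfp/Rag2-/- mice lack perforin and, through the loss of RAG2, mature T and B cells, while they keep myeloid cells. GFP+ cells in every group descend from 1 line, and a GFP- fraction of Pfp/Rag2-/- tumours was not analysed here. No age is given, and it is not stated if each library stands for 1 animal or several, so p-values rest on library-to-library spread alone, which may be technical.

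Oligodendrocytes wrap axons of the central nervous system in myelin, a stack of membrane held together by basic proteins and sealed by tight junctions. Their precursors carry the transcription factors OLIG1, OLIG2 and SOX10 and turn on MYRF as they differentiate. MYRF then activates many myelin genes. In a digested brain tumour, RNA of these genes can come from tumour cells that run part of this programme or from host oligodendrocytes and myelin debris, and the sort into GFP+ and GFP- cells was used here to measure where each member was found.

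Promoter sequences are shown for Mog, Mag, Cnp and Mobp, because the first 3 hold the 7-base sequence CTGGNAC, which covers the core that MYRF is known to bind, and Mobp, which was at 0 in culture and present in every tumour library, does not. They come from RefSeq (GRCm38.p6), which had an entry for 7 of the 9 members and none for Mbp and Myrf. The 250 bases before the annotated start are printed 5′ to 3′ on the strand of the gene, and capitals mark CTGGNAC on either strand. Mog lies at chr17:37023399-37023648 (minus strand), Mag at chr7:30914864-30915113 (minus strand, the first of 3 starts listed), Cnp at chr11:100574689-100574938 (plus strand) and Mobp at chr9:120149492-120149741 (plus strand).
Mog: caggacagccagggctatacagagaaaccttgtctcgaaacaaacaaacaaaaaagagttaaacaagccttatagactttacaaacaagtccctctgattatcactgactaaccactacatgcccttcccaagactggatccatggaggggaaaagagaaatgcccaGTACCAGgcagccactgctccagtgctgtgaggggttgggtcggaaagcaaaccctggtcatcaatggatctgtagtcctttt
Mag: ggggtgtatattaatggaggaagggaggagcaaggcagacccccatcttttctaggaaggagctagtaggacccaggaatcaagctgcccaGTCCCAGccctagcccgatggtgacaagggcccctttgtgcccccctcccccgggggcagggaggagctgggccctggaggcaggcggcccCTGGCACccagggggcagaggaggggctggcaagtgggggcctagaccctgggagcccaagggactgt
Cnp: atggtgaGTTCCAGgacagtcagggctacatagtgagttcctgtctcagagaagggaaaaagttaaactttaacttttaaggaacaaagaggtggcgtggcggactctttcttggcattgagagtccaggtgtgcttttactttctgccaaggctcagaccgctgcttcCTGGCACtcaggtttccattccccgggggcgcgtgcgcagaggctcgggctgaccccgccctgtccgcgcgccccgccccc
Mobp: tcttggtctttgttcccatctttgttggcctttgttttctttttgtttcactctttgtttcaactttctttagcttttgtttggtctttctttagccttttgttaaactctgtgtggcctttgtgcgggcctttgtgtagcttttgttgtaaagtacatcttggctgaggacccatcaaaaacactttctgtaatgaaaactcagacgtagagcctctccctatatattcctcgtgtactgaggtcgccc
Counted back from the start, the matches lie at -83 to -77 in Mog, at -159 to -153 and -68 to -62 in Mag, and at -243 to -237 and -81 to -75 in Cnp. In this order, on the matching strand, they read CTGGTAC in Mog, CTGGGAC and CTGGCAC in Mag, and CTGGAAC and CTGGCAC in Cnp. N stands for any base, so the pattern is wider than the MYRF core. A match, here or among all promoters, need not hold that core. CTGGNAC was found in 3 of the 7 members with an entry and in 16.1% of 32851 promoters of the same length searched on both strands. AACAAT, one form of the core sequence of the SOX family, was found in 0 of the 7 and in 9.42% of all. Other forms of the SOX core were not searched for, so their presence in these windows was not tested. These matches are a description of the letters in this window. By GENCODE vM21 (GRCm38) the genes lie at chr17:37010743-37023398 (Mog), chr7:30899176-30914873 (Mag), chr3:31149920-31164324 (Cldn11), chr19:10208272-10240748 (Myrf), chr9:120149707-120181484 (Mobp), chr11:100574904-100591729 (Cnp), chr3:125865271-125938619 (Ugt8a) and chr2:58045113-58052864 (Ermn).

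Each library held between 19172814 and 21141662 recovered reads, and values below are normalized counts, that is reads scaled by the size factor of the library. GFP- libraries had the smallest size factors, 0.649 to 0.761, against 1.04 to 1.15 elsewhere. The oligodendrocyte lineage genes Olig1, Olig2 and Sox10 were present in the cultured cells, at means of 11629.5, 4432 and 16770.0, and in the WT GFP+ cells, at 19924, 7571 and 14434. In the GFP- cells their means were 1202.5, 472 and 839. Library 3 of the WT GFP- group stood apart, with 2737 counts of Olig1 against 499 and 371 in libraries 1 and 2. Library 3 of the WT GFP+ group also stood apart for several members, and calls or folds that it moved by over 1.5 times are given with and without it. In such bulk samples fewer cells of a type and less RNA per cell cannot be told apart.

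The basic proteins of compact myelin, Mbp and Mobp, behaved differently. Mbp, whose product binds the inner faces of the membrane together, was highest in culture, with 26772, 23647 and 24008 counts. It read 1310.1, 1207 and 3479 in WT GFP+ cells and 2903, 1554 and 2212 in Pfp/Rag2-/- GFP+ cells. All cultured libraries lay above all 15 tumour libraries. Unsorted tumours held 2976, 2272 and 3836 in WT and 7317, 3925 and 3107 in Pfp/Rag2-/- hosts, and GFP- cells held 3841, 2080 and 5516. Among the 5 tumour groups the order of the means was Pfp/Rag2-/- unsorted, WT GFP-, WT unsorted, Pfp/Rag2-/- GFP+ and WT GFP+, and each overlapped its neighbour. The Mbp locus also makes golli transcripts, which are known from neural precursors and lymphoid cells, and gene counts do not tell them from myelin transcripts.

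Mobp, another basic protein of compact myelin, was at 0 in all 3 cultured libraries. It read 115, 39.9 and 1501 in WT GFP+ cells, so library 3 was far above the other two. Pfp/Rag2-/- GFP+ cells held 918, 426 and 785. WT unsorted tumours held 983, 695 and 1265, Pfp/Rag2-/- unsorted tumours 3119, 1299 and 987, and GFP- cells 848, 186 and 2179. The cultured libraries lay below every tumour library, and WT GFP+ libraries 1 and 2 were the lowest of the tumour libraries.

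**Figure D1:**
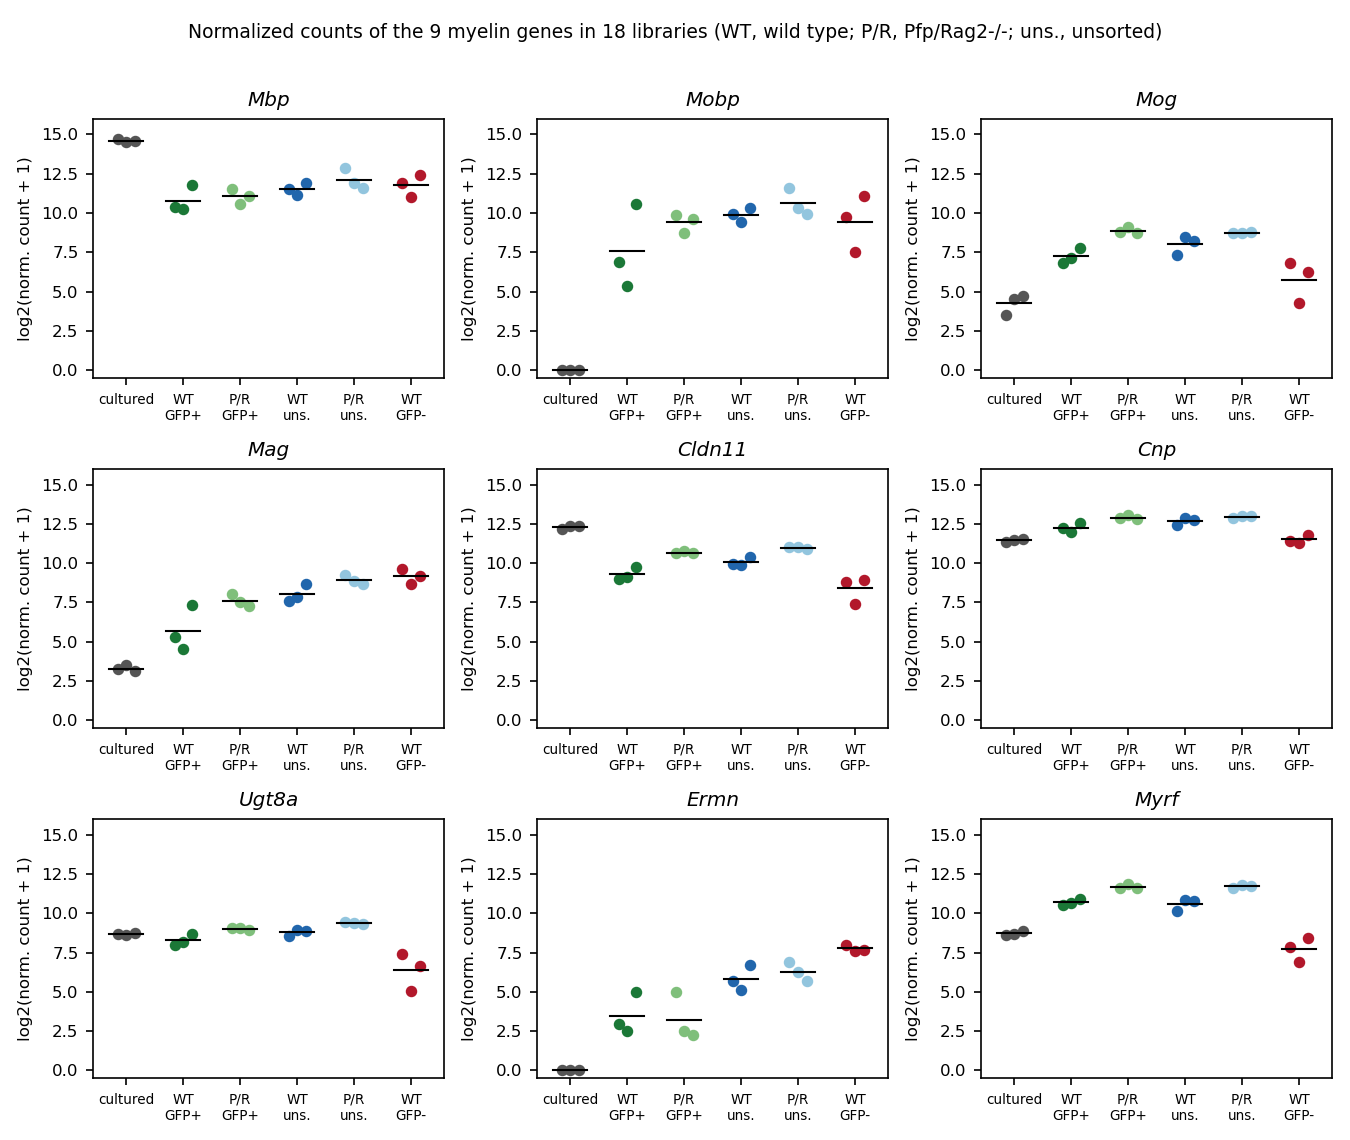
Normalized counts of the 9 members in the 18 libraries, plotted as log2(normalized count + 1), with a point for each library and a line at the mean of the 3 log2 values. Mbp and Cldn11 are highest in culture, Mobp and Ermn are at 0 there, and Mag and Ermn are highest in GFP- cells, while Myrf and Ugt8a are lowest in them.

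Mog and Mag sit on the outer and the axon-facing surface of the sheath. Mog, an immunoglobulin-family protein of the outermost lamella, read 10.4, 21.7 and 25.8 in culture, 113, 141 and 221 in WT GFP+ cells and 439, 559 and 419 in Pfp/Rag2-/- GFP+ cells. It read 159, 348 and 300.4 in WT unsorted tumours and 420.2, 417 and 435 in Pfp/Rag2-/- unsorted tumours. GFP- cells held 110.4, 18.5 and 73.6, all below every WT GFP+ and unsorted library. The Pfp/Rag2-/- GFP+ and unsorted groups overlapped and were the highest.

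Mag, a sialic acid-binding lectin of the periaxonal membrane, read 8.50, 10.4 and 7.63 in culture. It read 38.3, 21.9 and 158 in WT GFP+ cells and 267, 180.0 and 152 in Pfp/Rag2-/- GFP+ cells. WT unsorted tumours held 196, 226 and 414, and Pfp/Rag2-/- unsorted tumours 618, 471 and 411. GFP- cells held 806, 413 and 576 and had the highest mean, overlapping both unsorted groups. Mog and Mag thus stood in opposite order in the sort: every GFP- library lay below every WT GFP+ library for Mog and above it for Mag.

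Cldn11 encodes the claudin that forms the tight junctions between myelin layers. It was highest in culture, with 4656, 5245 and 5214 counts, and no tumour library came near. WT GFP+ cells held 506, 557 and 870.2, and Pfp/Rag2-/- GFP+ cells 1619, 1717 and 1570.3. WT unsorted tumours held 1001, 937 and 1344, and Pfp/Rag2-/- unsorted tumours 2093, 2089 and 1932. GFP- cells held 453, 169 and 492, below all WT GFP+ libraries. No group of Cldn11 overlapped another.

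Cnp encodes the cyclic nucleotide phosphodiesterase of the cytoplasmic channels of myelin, and it is made from the precursor stage on. It read 2575, 2837 and 2935 in culture, 4741, 4115 and 6098 in WT GFP+ cells and 7400, 8395 and 7173 in Pfp/Rag2-/- GFP+ cells. WT unsorted tumours held 5602, 7500.4 and 6743 and Pfp/Rag2-/- unsorted tumours 7463, 8205 and 8202. GFP- cells held 2763, 2531 and 3557, overlapping the cultured cells. The Pfp/Rag2-/- GFP+ and unsorted groups overlapped.

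Ugt8a encodes the enzyme that makes galactosylceramide, the main glycolipid of myelin. It varied little between culture, with 406, 393 and 430.2 counts, and the GFP+ cells, with 255, 284 and 408 in WT and 542, 522 and 492 in Pfp/Rag2-/- hosts. WT unsorted tumours held 380.1, 495 and 472 and Pfp/Rag2-/- unsorted tumours 695, 666 and 646. GFP- cells held 172, 32.4 and 98.6, below all other groups.

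Ermn, an actin-binding protein of late oligodendrocyte differentiation, was at 0 in culture. It read 6.70, 4.75 and 31.3 in WT GFP+ cells and 31.05, 4.59 and 3.68 in Pfp/Rag2-/- GFP+ cells, so 4 of these 6 libraries rested on 7 reads or fewer. WT unsorted tumours held 51.7, 33.3 and 104 and Pfp/Rag2-/- unsorted tumours 119.9, 75.2 and 51.4. GFP- cells held 252, 196 and 205, above every other library. The 2 GFP+ groups overlapped, as did the 2 unsorted groups.

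Myrf, the transcription factor of the set, read 392, 409 and 459 in culture. GFP+ cells held 1502, 1594 and 1951 in WT and 3102, 3704 and 3147 in Pfp/Rag2-/- hosts. Unsorted tumours held 1147, 1832 and 1761 in WT and 3136, 3524 and 3400.1 in Pfp/Rag2-/- hosts, so sorted and unsorted cells overlapped in each host. GFP- cells held 225, 117 and 337 and were the lowest of all groups.

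Levels were also divided by the length of all annotated exons of a gene, merged over its transcripts. This length was 8469 bases for Mbp, 6849 for Mobp and 1704 for Mog. A transcript can be shorter than the merged length, which lowers the value per kilobase, so the order between genes is approximate. In culture Mbp led with 2929 ± 202 normalized counts per kilobase (SD, n = 3), followed by Cldn11 with 2694 ± 177 and Cnp with 765 ± 51.2. In Pfp/Rag2-/- GFP+ cells the order of levels per kilobase was Cnp at 2104, Cldn11 at 875, Myrf at 388, Mog at 277, Mbp at 263, Ugt8a at 114, Mobp at 104, Mag at 49 and Ermn at 3.61. Mog and Mbp were within their spread of each other there, and so were Ugt8a and Mobp. In GFP- cells Cnp led at 811 counts per kilobase, then Mbp at 450.1, and Mag at 147 and Ermn at 59.8 stood above Myrf at 26.4 and Ugt8a at 22.3.

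The first comparison asks which members changed between culture and growth in the brain. Mog, Mag, Myrf, Mobp and Cnp rose in the WT GFP+ cells, and Mbp and Cldn11 fell. Mog rose 8.21-fold (mean 158 ± 56.1 against 19.3 ± 7.96, SD, n = 3 each), and Myrf rose 4.01-fold (1682 ± 237 against 420.0 ± 34.7). Cldn11 was 7.82-fold lower and Mbp 12.4-fold lower. Mobp was at least 194-fold higher, against a floor of 3 reads per cultured library. Library 3 of the WT GFP+ cells moved some of these values: without it Mobp was at least 27.2-fold higher and Mbp 19.7-fold lower. In all, 5 of the 8 members tested were called higher, where 30.3% of all genes tested were, and 2 were called lower, where 35.3% of all genes were. The median log2 difference was 1.41 over the members and -0.04 over all genes.

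Differences were tested with limma on log2(normalized count + 1), a scale that understates changes of low genes, and called at an adjusted p (Benjamini-Hochberg, all genes tested) under 0.05. The limma adjusted p was 0.000122 for Mog, with a log2 difference of 3.01 ± 0.36 (SE), and 1.16e-06 for Myrf, at 1.99 ± 0.11. It was 0.00826 for Mag, at 2.42 ± 0.62, and 0.000369 for Mobp, at 7.59 ± 1.10. Without WT GFP+ library 3 Mag stood at 1.62 and Mobp at 6.11, and both remained called. Cnp stood at 0.82 ± 0.13 with a limma adjusted p of 0.000548. Mbp was at -3.81 ± 0.34 and Cldn11 at -3.01 ± 0.18. Ugt8a, at -0.40 ± 0.16, was not called (limma adjusted p = 0.0521). Without WT GFP+ library 3 the Ugt8a difference was called, at -0.60. Ermn did not pass the filter on low values, and its mean of 14.3 in WT GFP+ cells was at least 5.02-fold above the floor of the cultured libraries. Without library 3 it was at least 2.02-fold above it.

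GFP+ cells from Pfp/Rag2-/- hosts were compared with the same 3 cultured libraries, so the 2 comparisons share their controls. Mog was 24.5-fold, Mag 22.6-fold, Myrf 7.90-fold and Cnp 2.75-fold higher than in culture, and Mobp was at least 249.7-fold higher. Ugt8a rose 1.26-fold. Mbp was 11.2-fold and Cldn11 3.08-fold lower. Of the 8 members tested 6 were called higher, against 35.1% of all genes, and 2 lower, against 37.1% of all genes. The median log2 difference was 2.22 over the members and -0.01 over all genes. Log2 differences with SE were 4.62 ± 0.29 for Mog, 4.32 ± 0.24 for Mag, 2.98 ± 0.08 for Myrf, 9.40 ± 0.30 for Mobp, 1.46 ± 0.07 for Cnp and 0.34 ± 0.07 for Ugt8a. They were -3.52 ± 0.18 for Mbp and -1.62 ± 0.06 for Cldn11, and the largest limma adjusted p of the 8 was 0.00161, that of Ugt8a. Fitting all 18 libraries together ended the call of Ugt8a (adjusted p = 0.483). Total scaling moved the median of all genes by 0.17 here and left the signs of the 8 members as they were.

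**Figure D2:**
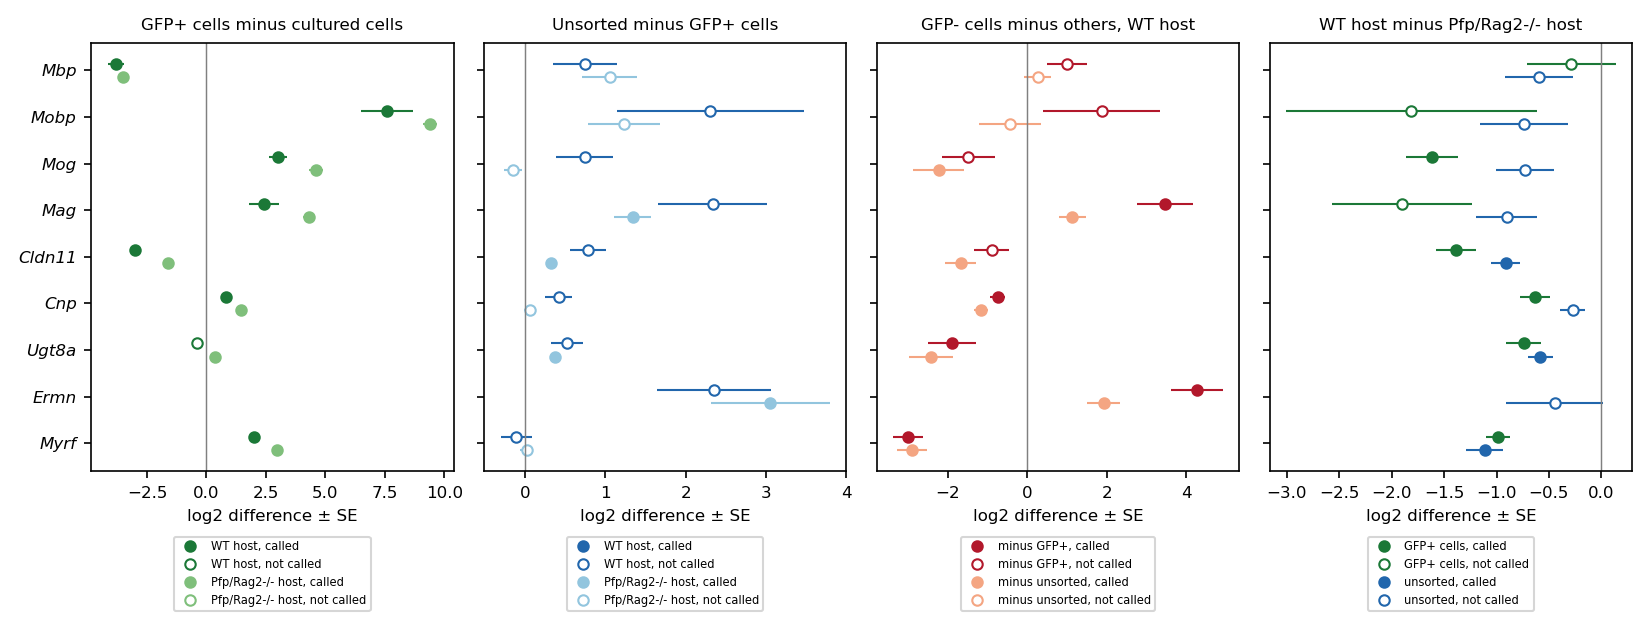
Log2 differences ± SE of the 9 members in 8 comparisons, with filled points where the limma adjusted p passed and open points where it did not. Myrf lies near 0 between unsorted and GFP+ cells and far below 0 in GFP- cells, whereas Mag and Ermn lie above 0 in both, and no member lies above 0 in the WT host minus the Pfp/Rag2-/- host.

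Unsorted tumours were compared with GFP+ cells of the same host to see what the sort took away. In Pfp/Rag2-/- hosts Mag, Cldn11, Ugt8a and Ermn were higher in unsorted cells, by 2.51-fold, 1.25-fold, 1.29-fold and 6.27-fold. Log2 differences were 1.34 ± 0.23 for Mag (SE, limma adjusted p = 0.00639), 0.32 ± 0.05 for Cldn11 (0.00624), 0.37 ± 0.06 for Ugt8a (0.00631) and 3.06 ± 0.74 for Ermn (0.0211). Thus 4 of 9 members were called higher, against 19.1% of all genes, and 0 lower, against 11.1% of all genes. The members' median was 0.37, against 0.06 over all genes. Mbp, at 1.05 ± 0.34, and Mobp, at 1.23 ± 0.45, had limma adjusted p-values of 0.0534 and 0.0783, although the 3 unsorted libraries lay above the 3 GFP+ libraries for both. Without Pfp/Rag2-/- unsorted library 1 the fold of Mobp fell from 2.54 to 1.61. Myrf, at 0.02 ± 0.08, Cnp, at 0.06 ± 0.07, and Mog, at -0.15 ± 0.11, were not called. The sign of the Myrf and Cnp differences turned under trimmed-mean scaling. The Ermn call was lost when any of 4 single libraries was left out, namely GFP+ library 2 or 3 or unsorted library 1 or 2, with adjusted p-values of 0.0647 to 0.0739. Without single libraries the log2 difference of Ermn ran from 2.55 to 3.94. Most of its GFP+ counts lay in GFP+ library 1, with 31.05 against 4.59 and 3.68. Fitting all 18 libraries together kept the call of Ermn and ended those of Mag (adjusted p = 0.0966), Cldn11 (0.552) and Ugt8a (0.600).

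In WT hosts 0 of 9 members were called between unsorted and GFP+ cells by limma, where 10.3% of all genes were called higher and 6.46% lower. The members' median was 0.75, against 0.05 over all genes. At an unadjusted p under 0.05 the count was 5. edgeR on recovered reads called 0, and DESeq2 called 3. The largest log2 differences were 2.35 ± 0.71 for Ermn (limma adjusted p = 0.0619), 2.34 ± 0.68 for Mag (0.0559) and 2.31 ± 1.16 for Mobp (0.208), while Myrf stood at -0.11 ± 0.19 (0.715). This count moved with the libraries and the tool. Without WT unsorted library 1 it was 1, Mog. Without WT GFP+ library 3, 6 members were called higher in unsorted cells: Mbp at 1.23, Mag at 3.14, Cldn11 at 1.02, Mobp at 3.79, Ugt8a at 0.73 and Ermn at 3.11.

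How much of the unsorted level the GFP+ cells kept was set beside markers of other cell types. For this, genes were taken that were low in culture, with a cultured mean under 10% of the unsorted mean and an unsorted mean of at least 20. In WT hosts the GFP+ cells kept 58.8% of the unsorted level for Mog, 56.3% for Mobp, 26.2% for Mag and 22.6% for Ermn. Over single libraries the share ran from 42% to 82.1% for Mog, from 4.07% to 153% for Mobp, from 7.85% to 56.9% for Mag and from 7.52% to 49.6% for Ermn. With library 3 left out it was 47.1% for Mog, 10.8% for Mag, 9.07% for Ermn and 7.89% for Mobp. The median was 3.89% over 8 neuron genes, 4.09% over 5 astrocyte genes, 15.7% over 9 endothelial genes, 12.1% over 5 pericyte and fibroblast genes, 24.0% over 12 macrophage and leukocyte genes, 23.4% over 6 microglia genes and 38.7% over 8 T cell genes. Without library 3 these medians were 1.62% for neuron, 1.11% for astrocyte, 8.77% for endothelial, 4.55% for pericyte and fibroblast, 23.7% for macrophage and leukocyte, 22.1% for microglia and 47.1% for T cell genes. The neuron genes then reached 22.8% in Thy1 and otherwise at most 2.98%, in Stmn2. Ermn, Mag and Mobp lay below Thy1 and above the other neuron genes, and Mog lay above them all.

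In Pfp/Rag2-/- hosts the GFP+ cells kept 111.5% of the unsorted level for Mog, 39.9% for Mag, 39.4% for Mobp and 16% for Ermn. The medians were 5.48% over 11 neuron genes, 10.4% over 5 astrocyte genes, 52.9% over 9 endothelial genes, 52.8% over 6 pericyte and fibroblast genes, 56.2% over 12 macrophage and leukocyte genes and 32.9% over 5 microglia genes. Pfp/Rag2-/- GFP+ library 1 stood apart here, and the shares were not taken without it. Its macrophage and leukocyte genes had a median of 2.32% of the GFP- mean, against 0.439% and 0.433% in libraries 2 and 3. Pericyte and fibroblast genes stood at 90.4% against 34.3% and 31.4%, and endothelial genes at 65.3% against 29.4% and 32.7%. Ermn read 31.05 in it, against 4.59 and 3.68, while Mog, at 439, lay between the other libraries. Mog lay above the highest neuron and astrocyte genes in both hosts, which reached 20.9% and 16.1% in WT and 27.6% and 18.6% in Pfp/Rag2-/- hosts. It did not lie above all genes on the lists of other cell types. Microglia genes reached 59.8% and T cell genes 75.3% in WT. In Pfp/Rag2-/- hosts macrophage and leukocyte genes reached 214%, microglia genes 289.6% and pericyte and fibroblast genes 390.0%. In GFP- against WT GFP+ cells 7 of 8 microglia and 5 of 7 pericyte and fibroblast genes tested were called higher. Over all genes this share was 42.7%. Yet GFP- cells held only 78.2% of the WT GFP+ mean of Tmem119, on the microglia list, and 76.1% of that of Col1a1, on the pericyte and fibroblast list. With all 3 GFP+ libraries, Ermn lay below the highest neuron gene and above the neuron median in Pfp/Rag2-/- hosts. Its share of 16% rested mostly on library 1, so its place against the neuron median is not secure. Myrf, Cnp, Cldn11, Ugt8a and Mbp were not low in culture by the rule above. For them GFP+ cells kept these shares of the unsorted level: Myrf 106.5% and 98.9%, Cnp 75.4% and 96.2%, Cldn11 58.9% and 80.2%, Ugt8a 70.3% and 77.5%, and Mbp 66.0% and 46.5% in WT and Pfp/Rag2-/- hosts. Without WT GFP+ library 3 the WT share of Mbp was 41.6%. These percentages are ratios of group means with no test.

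**Figure D3:**
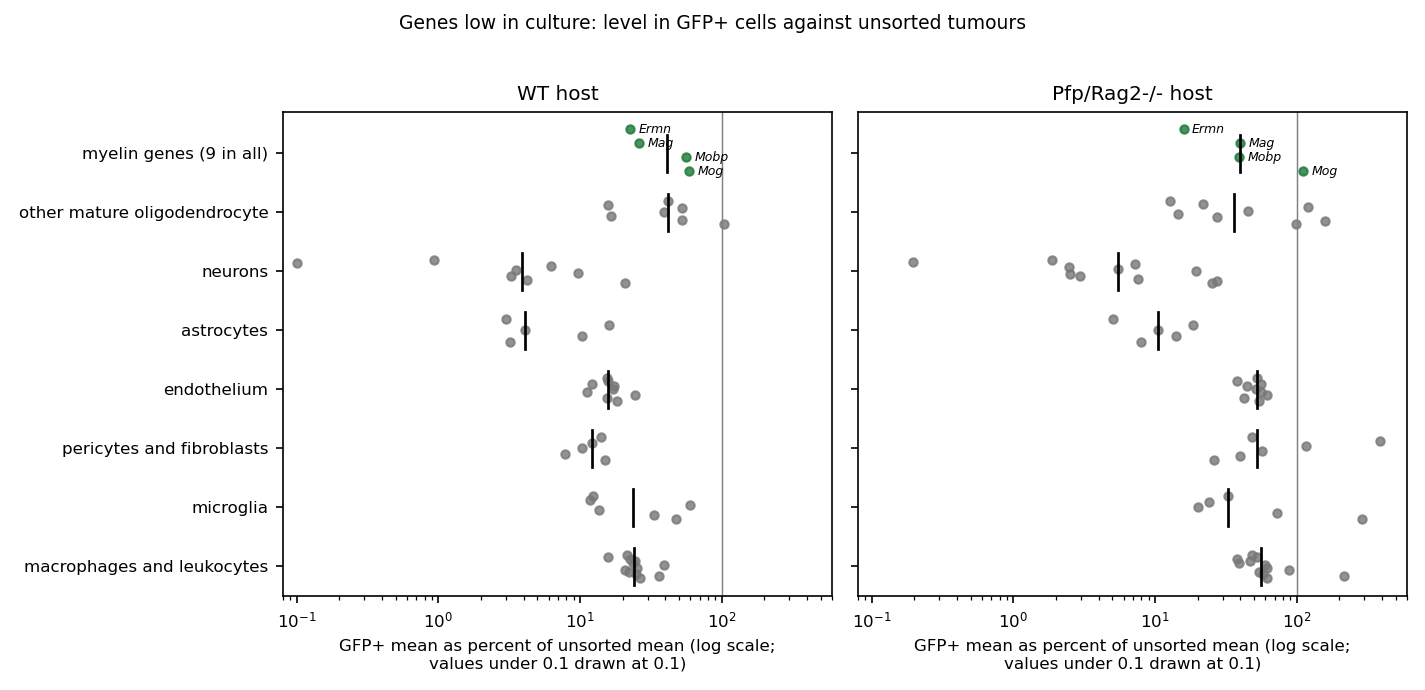
Mean level in GFP+ cells as a percentage of the unsorted mean of the same host on a log axis, with a point for each gene that was low in culture and a bar at the median of its list. Mog, at 58.8% and 111.5%, lies to the right of all neuron, astrocyte and endothelial genes. Ermn lies to the right of the highest neuron gene in WT hosts (22.6% against 20.9%) and to the left of it in Pfp/Rag2-/- hosts (16% against 27.6%). Some microglia genes in both hosts, and some macrophage and pericyte genes in Pfp/Rag2-/- hosts, lie to the right of Mog.

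GFP- cells of WT tumours were compared with WT GFP+ cells. Mag was 8.21-fold and Ermn 15.3-fold higher in GFP- cells, and Myrf was 7.44-fold, Ugt8a 3.12-fold and Cnp 1.69-fold lower. Mag was 19.9-fold and Ermn 38-fold higher when WT GFP+ library 3 was left out. Log2 differences were 3.46 ± 0.71 for Mag (SE, limma adjusted p = 0.00396), 4.27 ± 0.65 for Ermn (0.00107), -3.01 ± 0.37 for Myrf (0.000444), -1.90 ± 0.59 for Ugt8a (0.0236) and -0.75 ± 0.19 for Cnp (0.00907). Of 9 members 2 were called higher, where 42.7% of all genes were, and 3 lower, where 33.7% of all genes were. Over the members the median was -0.75, and over all genes it was 0.19. Mog, at -1.49 ± 0.67, Cldn11, at -0.90 ± 0.44, Mbp, at 1.00 ± 0.51, and Mobp, at 1.87 ± 1.46, were not called. Without WT GFP+ library 3 Mbp, at 1.49, and Mobp, at 3.35, were called and Ugt8a was not (adjusted p = 0.0789), and it was also lost without WT GFP+ library 2 (0.0538). Trimmed-mean, quantile and total scaling moved the median of all genes by -0.11, -0.41 and -0.65 in this comparison. With quantile and with total scaling 7 members were called, Mog (at -1.86 and -2.13) and Cldn11 (at -1.05 and -1.55) being added. Total scaling left the signs of all 9 differences as they were, and it turned the split of all calls from 55.9% higher to 37.2% higher.

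As a share of the WT GFP+ mean, GFP- cells held 13.4% of Myrf, 32% of Ugt8a, 42.7% of Mog, 57.7% of Cldn11 and 59.2% of Cnp, against 191% of Mbp, 194% of Mobp, 821% of Mag and 1525.5% of Ermn. Against WT GFP+ libraries 1 and 2 alone the last 4 were 303%, 1383%, 1989% and 3797%. For 7 lineage transcription factors the median share was 6.73%, and for 9 precursor genes it was 7.87%. Macrophage and leukocyte genes had a median share of 6526% over 12 genes, and their summed level ran from 392019 to 522816 in GFP- cells against 3266 to 10564 in WT GFP+ cells, with none of the 12 at 0. Myrf was thus the member nearest to the lineage factors in this share, and Mag and Ermn were the farthest from them. GFP- library 2 was the lowest of its group for all 9 members, and it held 6.96% of the GFP+ mean of Myrf and 11.7% of that of Mog.

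Against unsorted WT cells, the GFP- cells were again higher for Mag, by 2.15-fold, and for Ermn, by 3.44-fold. Mog was 3.99-fold, Cldn11 2.95-fold, Myrf 6.98-fold, Cnp 2.24-fold and Ugt8a 4.44-fold lower. Of 9 members 2 were called higher, against 39.9% of all genes, and 5 lower, against 33.8% of all genes. Over the members the median was -1.17, and over all genes 0.11. Log2 differences were 1.92 ± 0.41 for Ermn (SE, limma adjusted p = 0.00355), -2.89 ± 0.38 for Myrf (0.000294), -2.43 ± 0.54 for Ugt8a (0.00435), -2.23 ± 0.64 for Mog (0.0140), -1.68 ± 0.39 for Cldn11 (0.00540) and -1.17 ± 0.17 for Cnp (0.000495). Mag stood at 1.13 ± 0.34 (limma adjusted p = 0.0178). Its call was lost under scaling to equal totals, at 0.43, and without WT unsorted library 1 or 2 or GFP- library 1, with adjusted p-values of 0.0578 to 0.0730. Mbp, at 0.25 ± 0.35, and Mobp, at -0.44 ± 0.78, were not called, and the sign of Mbp turned under scaling to equal totals and under quantile scaling. This comparison shares its GFP- libraries with the one before. Trimmed-mean, quantile and total scaling moved its median of all genes by -0.10, -0.28 and -0.70.

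WT GFP+ library 3 carried more of some members than libraries 1 and 2. The ratio of library 3 to the mean of the other two was 19.4 for Mobp, 5.47 for Ermn, 5.27 for Mag and 2.76 for Mbp. It was 1.26 for Myrf, 1.38 for Cnp, 1.51 for Ugt8a, 1.64 for Cldn11 and 1.74 for Mog. The median ratio was 3.65 over 9 endothelial genes, 3.70 over 6 pericyte and fibroblast genes, 1.49 over 9 astrocyte genes, 1.40 over 7 lineage transcription factors, 0.878 over 12 macrophage and leukocyte genes and 0.335 over 9 T cell genes. The astrocyte genes did not move as 1 list: Aqp4 at 22.2, Gfap at 10.2, Mlc1 at 9.06 and Slc1a2 at 8.80, which were low in culture, stood as far out as Mobp and Ermn, and the other 5 ran from 0.935 to 1.49. The summed endothelial level ran from 1700 to 2511 in WT GFP+ cells and from 2082 to 2222 in culture, and 5 of its 10 genes, Cdh5, Cldn5, Emcn, Erg and Kdr, were at 0 in culture and 0 of them in the WT GFP+ group. The part of host RNA in the values of library 3 was not tested.

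**Figure D4:**
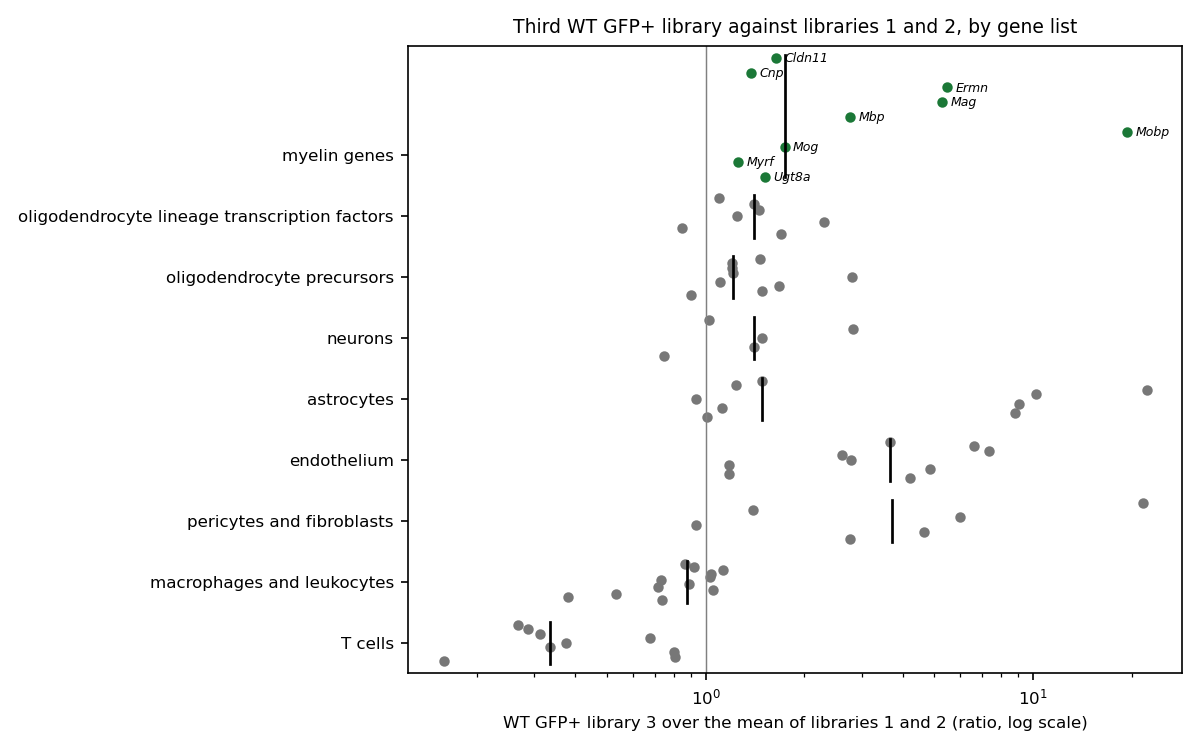
Ratio of WT GFP+ library 3 to the mean of libraries 1 and 2 on a log axis, with a point for each gene and a bar at the median of its list. Mobp at 19.4, Ermn at 5.47 and Mag at 5.27 lie far from Myrf at 1.26, and endothelial genes have a median of 3.65.

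The hosts were compared within GFP+ cells. Mog, Cldn11, Myrf, Cnp and Ugt8a were lower in the WT host than in the Pfp/Rag2-/- host, by 2.99-fold, 2.54-fold, 1.97-fold, 1.54-fold and 1.64-fold. Log2 differences, WT minus Pfp/Rag2-/-, were -1.62 ± 0.25 for Mog (SE, limma adjusted p = 0.00430), -1.38 ± 0.19 for Cldn11 (0.00286), -0.98 ± 0.11 for Myrf (0.00148), -0.63 ± 0.14 for Cnp (0.0163) and -0.74 ± 0.17 for Ugt8a (0.0181). For these 5 genes every WT library lay below every Pfp/Rag2-/- library. Of 8 members tested 0 were called higher, against 15.3% of all genes, and 5 lower, against 15.0% of all genes. The median log2 difference was -1.18 over the members and -0.02 over all genes.

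Mag, at -1.90 ± 0.67 (limma adjusted p = 0.0699), Mobp, at -1.81 ± 1.19 (0.287), and Mbp, at -0.29 ± 0.42 (0.638), were not called, and Ermn did not pass the filter. With the replicate block Mag was also called (limma adjusted p = 0.0479). No label says that a shared number marks 1 animal or batch, and the r of same-numbered libraries was 0.616, 0.483 and 0.102. Without WT GFP+ library 3 Mag, at -2.70, and Mobp, at -3.29, were called too, which made 7 members. Mbp then stood at -0.78 and was not called (limma adjusted p = 0.0511). Without Pfp/Rag2-/- GFP+ library 2 only Mog, Cldn11 and Myrf were called. The call of Cnp was also lost without WT GFP+ library 1, and that of Ugt8a without WT GFP+ library 2 or Pfp/Rag2-/- GFP+ library 3 and with all 18 libraries in 1 fit, with adjusted p-values of 0.0530 to 0.207. Pericyte and fibroblast genes moved the same way, with 6 of 8 tested called lower in WT, a median log2 difference of -2.76 and a summed level of 8601 to 10198 in WT against 17573 to 20573 in Pfp/Rag2-/- GFP+ cells, and 0 of 10 at 0 in either. The same sum was 4784 to 5111 in culture, where Kcnj8 was at 0. In WT GFP+ cells Col3a1 made up most of it, with a mean of 8688 beside a summed mean of 9345. GFP- cells held 6.51% of this Col3a1 mean. Of 10 endothelial genes 0 were called, at a median of -1.55. Their part in the difference was not tested.

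Between unsorted tumours Cldn11, Myrf and Ugt8a were lower in the WT host, by 1.86-fold, 2.12-fold and 1.49-fold. Log2 differences were -0.91 ± 0.14 for Cldn11 (SE, limma adjusted p = 0.00329), -1.11 ± 0.18 for Myrf (0.00401) and -0.58 ± 0.12 for Ugt8a (0.0107). Of 9 members 0 were called higher, against 15.1% of all genes, and 3 lower, against 14.8% of all genes. The median was -0.73 over the members and -0.05 over all genes. All 9 estimates were below 0, and those not called ran from -0.90 ± 0.29 for Mag (0.0531) to -0.28 ± 0.12 for Cnp (0.122). The summed level of 12 macrophage and leukocyte genes was 25338 to 28038 in WT against 7492 to 8746 in Pfp/Rag2-/- unsorted tumours, with 12 of 12 called higher in WT. Neuron genes moved the same way as the members: the summed level of 12 was 1843 to 3193 in WT and 3182 to 10046 in Pfp/Rag2-/- unsorted tumours, with 0 of 12 at 0 in either and 2 of 12 called lower in WT. Pfp/Rag2-/- unsorted library 1 stood apart, with the neuron sum of 10046 and the highest Mbp and Mobp of the unsorted libraries. Without it the log2 difference was -0.24 for Mbp and -0.25 for Mobp, against -0.59 and -0.74 with it, and Cldn11, Myrf and Ugt8a remained called. The part of these cell types in the host difference was not tested. The call of Ugt8a was lost with all 18 libraries in 1 fit (adjusted p = 0.285).

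Whether the host effect differed between GFP+ and unsorted cells was tested as an interaction over 12 libraries. By limma 0 of 9 members were called, against 0.934% of all genes. At an unadjusted p under 0.05 the count was 1, Mog, and edgeR and DESeq2 called 0. The Mog interaction was -0.89 ± 0.40 (log2, SE, limma adjusted p = 0.251), the host effect being -1.62 in GFP+ and -0.73 in unsorted cells. Without WT unsorted library 1 Mog was called (limma adjusted p = 0.0441). For Myrf the interaction was 0.13 ± 0.23 (0.788).

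Ratios between members show which of them moved together. Mobp is a basic protein gene of compact myelin like Mbp, and the ratio of Mbp to Mobp counts lay between 2.32 and 3.65 in the 6 unsorted libraries, the 3 Pfp/Rag2-/- GFP+ libraries, WT GFP+ library 3 and GFP- library 3. It was 11.4 and 30.2 in WT GFP+ libraries 1 and 2, and 4.53 and 11.2 in GFP- libraries 1 and 2. The ratio of Mobp to Ermn was 12.1 to 26.0 in the unsorted libraries and 0.953 to 10.6 in GFP- cells, but 29.6, 92.8 and 213 in Pfp/Rag2-/- GFP+ cells, where the last pair rests on 5 and 4 reads of Ermn. For Mobp to Mag the GFP- ratios were 1.05, 0.451 and 3.78, and they overlapped those of the Pfp/Rag2-/- GFP+ libraries, 3.44, 2.37 and 5.16. These ratios have no test.

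Other genes of the mature oligodendrocyte programme, a list of 30, were called in both directions. In WT GFP+ cells against culture 10 of 25 tested were called higher and 12 lower, and in Pfp/Rag2-/- GFP+ cells 12 of 26 were called higher and 11 lower. Over all genes the shares were 30.3% higher and 35.3% lower in WT, and 35.1% and 37.1% in Pfp/Rag2-/- hosts. Opalin, a membrane protein of mature oligodendrocytes, was at 0 in culture, read 12.5, 12.3 and 13.8 in WT GFP+ cells and 216, 174 and 199 in Pfp/Rag2-/- GFP+ cells. Unsorted cells held 19.4, 23.4 and 30.5 in WT and 94.2, 166 and 114 in Pfp/Rag2-/- hosts, and GFP- cells held 30.9, 1.54 and 13.1. Opalin was higher in Pfp/Rag2-/- GFP+ than in unsorted cells, with a log2 difference of -0.68 ± 0.22 for unsorted minus GFP+ (limma adjusted p = 0.0496). It was lower in WT than in Pfp/Rag2-/- GFP+ cells by 3.82 ± 0.18 on the log2 scale.

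Mal, a raft protein of myelin, fell in both GFP+ groups against culture, by 2.27 and 2.49 on the log2 scale in WT and Pfp/Rag2-/- hosts. Bcas1, a gene of newly forming oligodendrocytes, rose by 1.97 and 2.47, and its GFP- mean was 591 against 7143 in WT GFP+ cells. Gjc3, a connexin gene, had means of 21157 in WT GFP+ and 1085 in GFP- cells. Aspa, the aspartoacylase of mature oligodendrocytes, was higher in GFP- cells, with 216, 122 and 76.3 against 40.2, 53.2 and 36.8 in WT GFP+ cells (log2 difference 1.54 ± 0.41, limma adjusted p = 0.0131). In GFP- against WT GFP+ cells 10 of 29 tested genes of the list were called higher and 12 lower, where 42.7% and 33.7% of all genes were.

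Of the precursor genes, Gpr17, a receptor of committed precursors, went from 26.4, 16.03 and 29.6 in culture to 1875, 1533 and 4765 in WT GFP+ and 6369, 6434 and 5860 in Pfp/Rag2-/- GFP+ cells. Against culture 7 of 9 tested precursor genes were called higher and 2 lower in WT GFP+ cells. In Pfp/Rag2-/- GFP+ cells 7 of 8 were called higher and 1 lower. The shares of all genes are those given above.

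Genes with the profile most like the average of the members over the 18 libraries were sought among 14789 genes, by the mean absolute difference of centred log2 values. The closest were St3gal6 at 0.31, Spock2 at 0.33, Frat1 at 0.35, Pde5a at 0.39 and Sept4 at 0.39. Over the 6 group means Kif5a at 0.19, Asphd1 at 0.19 and St3gal6 at 0.21 led. The members were themselves farther from their average, from 0.58 for Cnp to 2.16 for Mobp over the 18 libraries, so the average profile describes few of them. Nearest genes were then also sought for single members, a step chosen after the values were seen. Myrf was closest to Tmem88b, at 0.21, a gene of the mature oligodendrocyte list. Mog was closest to Tmeff2 at 0.42, then to Angpt1 and Zfp981, both at 0.43. Fa2h, a fatty acid hydroxylase of myelin lipids, held rank 4 for Mog, at 0.43. Mobp was closest to Rgs5 at 0.78, Igfbp7 at 0.79 and Cldn5 at 0.80, genes known from pericytes and endothelium, and Mbp to Dagla at 0.40. Mag was closest to Slc38a5 at 0.44 and Vwf at 0.45. Cldn11 was closest to Fam171a2 at 0.29, Cnp to Scfd2 at 0.14, Ugt8a to Gnao1 at 0.19 and Ermn to Lrrc3 at 0.50. These distances are descriptions over libraries that share groups.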

How the data were processed

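The deposited table holds normalized counts, a signal in which the authors' whole reads are divided by a library's size factor. STAR 2.5.2b, DESeq2 and GRCm38 are listed in the submitters' processing notes. For the read counter and annotation release, names were not given in the sources used here. Within 0.05 reads, 99.99% to 100.0% of the values per library were whole reads. Names, coordinates and exon lengths came from GENCODE vM21. No pair of replicates differed by less than the sampling noise.

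Genes reaching 10 normalized counts in 3 or more libraries of a comparison were tested as log2(value + 1) with limma 3.58.1 (trend) in R 4.3.3, two-sided, on the comparison's libraries alone. Calls used a Benjamini-Hochberg adjusted p under 0.05. The script was tested on simulated data. Alternatives were other scalings, filters and pseudocounts, edgeR 4.0.16 and DESeq2 1.42.0 on recovered reads, 1 fit of all libraries, the replicate block, and leaving out each library. The members and gene lists were chosen with earlier results of these data known. All members are named, with listed defining genes of related lists, up to 4 more per list by mean level, and the 8 genes most like the members. Aspa and Opalin library values, Tmem88b, Fa2h and the genes nearest to single members were added after values were seen. Scaling to equal totals was also added then. Only in the comparison of hosts in GFP+ cells was the r of same-numbered libraries over 0.1 for every number (0.616, 0.483 and 0.102).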

Additional observations from a re-analysis of the deposited data

How the results depend on the processing

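Of the results for single members under all alternatives, 1207 kept their direction and side of the threshold, 49 became called, 22 lost the call and 21 changed sign. No called difference changed sign under any alternative run. For unsorted against GFP+ cells of WT hosts, where 0 members were called, the count was 1 with log2(value + 10) and with quantile scaling, and 3 with DESeq2, with all 18 libraries in 1 fit and with the replicate block, and leaving out single libraries gave 0 to 6. In Pfp/Rag2-/- hosts the count of 4 became 1 with all 18 libraries in 1 fit. For GFP- against GFP+ cells the count of 5 became 8 in that fit. Leaving out single libraries gave 3 to 7 for the hosts in GFP+ cells and 0 to 1 for the interaction. The cause of these moves was not tested.

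Signs changed only for differences that were not called. Myrf in Pfp/Rag2-/- unsorted minus GFP+ cells was -0.040 with trimmed-mean scaling, -0.042 with edgeR and -0.037 with DESeq2, and -0.028 to 0.10 without single libraries. Cnp in that comparison was -0.000962 and -0.0019 with trimmed-mean scaling and edgeR. In GFP- minus unsorted cells Mbp was -0.30 with quantile and -0.45 with total scaling, an alternative chosen after seeing the data, and Mobp was 0.0026 with edgeR. The Mobp interaction was 0.48 with edgeR and 0.51 with DESeq2. Without single libraries the ranges were -0.23 to 0.10 for Myrf in WT unsorted minus GFP+ cells, -0.067 to 0.64 for Mbp and -1.26 to 0.51 for Mobp in GFP- minus unsorted cells, and for the interaction -0.18 to 0.58 for Mbp, -0.085 to 0.25 for Myrf, -2.56 to 0.042 for Mobp and -0.056 to 1.59 for Ermn.

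Without the replicate block the main counts stand as given. With it the count was 8 for WT GFP+ against culture, 6 for unsorted against GFP+ cells of Pfp/Rag2-/- hosts, 7 for GFP- against GFP+ cells (with Mbp at an adjusted p of 0.00818 and Mobp at 0.0193) and 6 for the hosts in GFP+ cells, and other counts than these and the one above were as in the fit without a block. In no comparison did every library correlate best with its own number. Under other scalings the share of higher calls among all genes moved by over 10 points: from 61.4% to 48.5% (quantile) in WT and from 63.3% to 49.2% and 49.4% (quantile, trimmed mean) in Pfp/Rag2-/- unsorted against GFP+ cells, from 48.6% to 62.5% (total) in Pfp/Rag2-/- GFP+ cells against culture, from 55.9% to 43.4% (quantile) in GFP- against GFP+ cells, from 54.1% to 34.8% (total) in GFP- against unsorted cells, from 50.5% to 33.9% (total) for the hosts in GFP+ cells, and from 76.2% to 58.2% and 54.1% (quantile, total) for the interaction. Depth limits Ermn most, which rested on a few reads in GFP+ cells.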
